A study of Caenorhabditis elegans with 2 samples.

Results

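The spliced leader RNA genes of Caenorhabditis elegans were examined for sites of CEH-44, a homeobox transcription factor of the CUT family. They were taken as all annotated genes named sls-1 or sls-2, which gave 12 SL1 genes and 18 SL2 genes, 30 of 46890 annotated genes in all. Each gene was asked whether a peak summit (the point of a peak that the deposited list marks) lay within 250 bp of it, and how strong the strongest candidate there was. One further sls-2 entry, sls-2.19, is annotated as a pseudogene and is kept apart from the 30.

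The data came from chromatin immunoprecipitation and sequencing (ChIP-seq), which recovers the DNA a protein is attached to. The only group was strain RW12327, in which the ceh-44 gene had been given TY1, EGFP and 3xFLAG tags at its own locus by CRISPR. Whole larvae of the fourth stage were taken at 49 h, after hatching without food had brought them into step, and anti-GFP antibody pulled down the tagged protein. With 2 biological replicates and no second condition, there is no contrast between samples, so the comparisons below are between genes, and none is a test. CEH-44 is known as a neuronal protein, and in whole larvae a site used in a few cells and a weak site used in many cannot be told apart.

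Spliced leader RNAs are short RNAs made by RNA polymerase II. Each carries a leader at its 5′ end, which the spliceosome cuts off and joins to the start of many mRNAs, a reaction called trans-splicing. SL1 is joined mostly to the first exons of genes with promoters of their own, and SL2 mostly to genes that lie downstream in operons, in which several genes are transcribed as 1 RNA. The leader brings a trimethylated cap, and the rest of the RNA binds Sm proteins as the small nuclear RNAs (snRNAs) of the spliceosome do. SL1 genes lie in the repeats that also hold the 5S rRNA genes. SL2 genes are scattered singly or in small clusters. Their promoters, like those of snRNA genes, hold a proximal sequence element that recruits the SNAPc complex.

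Representative genes show how alike the copies were. They are printed 5′ to 3′ on the gene's own strand from the RefSeq sequence of WBcel235 (the ce11 assembly), with the leader in capitals and the transcript body in lower case. The SL1 gene stands for the array. Among the SL2 genes, sls-2.2 with sls-2.3 and sls-2.11 with sls-2.10 are pairs set against each other below. The genes sls-2.8, sls-2.15 and sls-2.18 are further members described below.
sls-1.9 (chrV:17122650-17122747, minus strand): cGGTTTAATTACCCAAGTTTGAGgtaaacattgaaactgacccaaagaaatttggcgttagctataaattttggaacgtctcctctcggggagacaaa
sls-2.2 (chrII:5543598-5543707, plus strand): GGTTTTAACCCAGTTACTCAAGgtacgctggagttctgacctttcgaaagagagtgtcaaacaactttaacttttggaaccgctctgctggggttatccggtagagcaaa
sls-2.3 (chrII:5544164-5544273, minus strand): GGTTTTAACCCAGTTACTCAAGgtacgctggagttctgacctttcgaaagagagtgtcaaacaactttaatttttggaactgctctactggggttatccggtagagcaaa
sls-2.8 (chrIII:12250465-12250575, plus strand): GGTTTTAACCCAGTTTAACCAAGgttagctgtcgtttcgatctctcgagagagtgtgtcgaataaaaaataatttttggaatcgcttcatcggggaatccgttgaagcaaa
sls-2.11 (chrIV:9140415-9140523, plus strand): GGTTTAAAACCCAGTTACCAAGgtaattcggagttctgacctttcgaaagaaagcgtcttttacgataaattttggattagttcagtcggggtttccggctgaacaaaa
sls-2.10 (chrIV:9130721-9130829, minus strand): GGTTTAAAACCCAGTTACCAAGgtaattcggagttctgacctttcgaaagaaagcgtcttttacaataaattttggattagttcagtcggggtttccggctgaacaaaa
sls-2.15 (chrIII:11091010-11091121, plus strand): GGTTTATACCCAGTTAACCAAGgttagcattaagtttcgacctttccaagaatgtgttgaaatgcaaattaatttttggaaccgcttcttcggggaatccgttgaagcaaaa
sls-2.18 (chrIII:7142291-7142397, plus strand): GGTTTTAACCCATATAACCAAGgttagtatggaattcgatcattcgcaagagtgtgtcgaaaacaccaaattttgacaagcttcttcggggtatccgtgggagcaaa

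Of the 12 SL1 genes, 10 had the same 98-bp sequence and the same leader of 22 bases, which began at the second base of the annotated gene. The other 2, sls-1.1 and sls-1.5, were annotated as 68 bp without the leader. The 18 SL2 genes had 18 distinct sequences and 11 distinct leaders of 21 to 23 bases. The gene sls-2.11 differed from sls-2.10 by A65G alone, with positions counted from 1 at the 5′ end of the gene. The gene sls-2.3 differed from sls-2.2 by C71T, C81T and G87A, all outside the leader. Over the 153 pairs of SL2 genes the median identity was 76.1% in the gene and 53.7% in the 100 bp upstream.

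The 100 bp before the gene are printed next for 5 of them, because the proximal element of such promoters lies there. Capitals mark the letters TGTCNG where they fell on the gene's strand from 60 to 40 bp before its start.
sls-1.9 upstream (chrV:17122748-17122847, minus strand): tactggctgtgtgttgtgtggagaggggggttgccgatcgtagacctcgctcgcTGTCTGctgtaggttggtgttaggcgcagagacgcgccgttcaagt
sls-2.8 upstream (chrIII:12250365-12250464, plus strand): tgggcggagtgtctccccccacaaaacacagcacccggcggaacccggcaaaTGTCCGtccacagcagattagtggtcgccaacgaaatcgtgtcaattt
sls-2.11 upstream (chrIV:9140315-9140414, plus strand): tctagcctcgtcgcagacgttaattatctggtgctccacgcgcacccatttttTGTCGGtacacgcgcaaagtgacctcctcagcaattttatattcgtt
sls-2.10 upstream (chrIV:9130830-9130929, minus strand): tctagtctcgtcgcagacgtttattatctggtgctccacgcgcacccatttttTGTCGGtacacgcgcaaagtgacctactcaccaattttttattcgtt
sls-2.18 upstream (chrIII:7142191-7142290, plus strand): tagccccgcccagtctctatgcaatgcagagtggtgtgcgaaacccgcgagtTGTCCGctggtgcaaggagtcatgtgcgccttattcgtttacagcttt

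TGTCNG was found on the gene's strand in that stretch at 15 of 18 SL2 genes, at 48 bp before the start in 13 of them and 47 bp before in the other 2. The 3 genes without it there were sls-2.2, sls-2.6 and sls-2.7. Searched on both strands of the 100 bp, TGTCNG was at 17 of 18 SL2 genes and 10 SL1 genes, against 9.73% of 26913 noncoding genes and 9.69% of 19973 coding genes. The word was chosen after the sequences had been read, so its frequency is a description. It did not separate the SL2 genes with a peak from those without one, since it was at all 8 with a peak and 9 of the 10 without. AACCCGC, the next word shared by many, was upstream of 9 SL2 genes, of which 2 had a peak, and of 0 SL1 genes, against 0.483% of noncoding and 0.300% of coding genes. CCTCGAAA was upstream of 4 SL2 genes, of which 3 had a peak, against 0.349% of noncoding and 0.300% of coding genes. These 4 are sls-2.1, sls-2.2, sls-2.3 and sls-2.4, which share a leader, so the word and that leader mark the same genes. TTTTGG, whose run of T before GG is like the Sm protein site of these RNAs, was in all 12 SL1 genes and in 17 of 18 SL2 genes, the exception being sls-2.18.

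CEH-44 peaks were listed at SL2 genes and not at SL1 genes, whose sequence is repeated throughout. In the larger of the series' thresholded lists, which holds 1027 peaks, 8 of 18 SL2 genes (44.4%) had a summit within 250 bp and 0 of 12 SL1 genes did. Of all annotated genes, 3.25% had such a summit. Noncoding genes of at most 200 bp, with piRNA genes and the spliced leader genes left out, had one in 9.36% of 7652 cases. The closest classes were the other snRNA genes, at 28.1% of 89, and the tRNA genes, at 49.7% of 612. The annotation files the 22-bp entry mir-1831 as an snRNA gene inside sup-39, with the same summit, and without it the snRNA count was 24 of 88 (27.3%). In this list the SL2 share lay between those of the snRNA and the tRNA genes. The conservative series list also gave 8 and 0, against 3.14% of all genes.

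The 8 SL2 genes with a peak were sls-2.1, sls-2.2, sls-2.4, sls-2.8, sls-2.9, sls-2.11, sls-2.15 and sls-2.18. In the replicates' own thresholded lists, 4 of them (sls-2.2, sls-2.4, sls-2.8 and sls-2.9) were present in both. Replicate 2 alone added sls-2.1, sls-2.11 and sls-2.18, and replicate 1 alone added sls-2.15. Replicate 1's list thus held 5 SL2 genes (27.8%, against 1.33% of all genes) and replicate 2's list 7 (38.9%, against 1.87%). In those lists the SL2 share was above that of tRNA genes, which was 18% in replicate 1 and 31% in replicate 2. The other snRNA genes had 13.5% and 15.7%. SL1 genes numbered 0 in both.

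Signals are the authors' own value per peak, on a scale the sources used here do not state, and are compared within a list only. The strongest of the 8 was at sls-2.2, which had a signal of 69.6 in replicate 1, 77.2 in replicate 2 and 146 in the series list, where it ranked 65th of 1027. The gene carries the leader printed above for sls-2.3 as well and lies between coding genes on chromosome II. At sls-2.1, also on chromosome II, the signal was 50.8 in replicate 1, 74.2 in replicate 2 and 124 in the series list. At sls-2.4 on chromosome I it was 58.2 in replicate 1, 65.5 in replicate 2 and 112 in the series list. These 3 genes share a leader with sls-2.3, and they are the 3 highest SL2 genes.

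At sls-2.9 the signal was 45.6 in replicate 1, 65.8 in replicate 2 and 101 in the series list. That summit lay 142 bp before the gene, inside the tRNA gene M01E5.t1, and replicate 1's own summit lay 137 bp before it. Replicate 2's own summit lay 33 bp before the gene, outside the tRNA gene. A second peak of the larger list had its summit inside sls-2.9 itself, with a signal of 7.61 and rank 1021 of 1027. That second peak was absent from the conservative list, and its interval overlapped that of the first. Without summits within 250 bp of a tRNA gene, 7 SL2 genes had a peak. At sls-2.8 the signal was 40.0 in replicate 1, 54.9 in replicate 2 and 97.1 in the series list, at a summit 72 bp before the gene. That summit also lay 229 bp before tim-1, the gene of a Timeless-family protein, and 267 bp before the coding gene Y75B8A.23.

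The remaining 3 lay in introns. The gene sls-2.18 is in an intron of glr-2, a glutamate receptor gene, and had a signal of 27.6 in replicate 1, 60.6 in replicate 2 and 84.5 in the series list. The gene sls-2.15 is in an intron of W09D6.5 and had 48.1 in replicate 1, 28.1 in replicate 2 and 81.3 in the series list. The gene sls-2.11 is in an intron of daf-10, which encodes a protein of intraflagellar transport, and had 29.0 in replicate 1, 47.6 in replicate 2 and 70.0 in the series list. Of the 18 SL2 genes, 7 lay in introns, 3 of them with a peak, and 11 lay between coding genes, 5 of them with a peak.

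Replicate 2 was the higher at 7 of the 8, with sls-2.15 as the exception, and the median ratio of replicate 2 to replicate 1 was 1.41. Over the 1011 peaks of the larger list with a candidate in both replicates, replicate 2 was the higher at 72.4%, with a median ratio of 1.24. Depth is not stated for either replicate, and its part in this order was not tested.

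Of the 10 SL2 genes without a listed peak, 8 had a weaker ranked candidate within 250 bp. Their series signals ran from 17.5 to 51.5 with a median of 36.8, against 70.0 to 146 with a median of 99.1 at the 8 with a peak. The groups are split by a list made from these same candidates, so this gap follows largely from the split. Among those without a listed peak the highest was sls-2.16 in an intron of glr-2. It had 26.3 in replicate 1, 27.4 in replicate 2 and 51.5 in the series list, followed by sls-2.3 at 45.8. The genes sls-2.13, sls-2.12, sls-2.14, sls-2.5 and sls-2.17 followed, from 41.6 down to 27.9. The lowest was sls-2.6, in an intron of the homogentisate oxidase gene hgo-1, at 17.5 in the series list. The genes sls-2.7 and sls-2.10 had no candidate in the larger ranked list. For sls-2.10 the nearest candidate was 3599 bp away. The ranked list holds only values above a minimum, so a gene with no candidate is not shown to have no signal.

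Taken over the 16 SL2 genes with a candidate, the median of the strongest signal was 60.8. It was 61.1 over tRNA genes, 43.7 over the other snRNA genes and 27.1 over all genes, each among genes with a candidate. Having some candidate was common, since 63.6% of all genes, 85.4% of the other snRNA genes and 88.9% of SL2 genes had one. Among SL1 genes the share was 8.33%, 1 of 12.

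**Figure D1:**
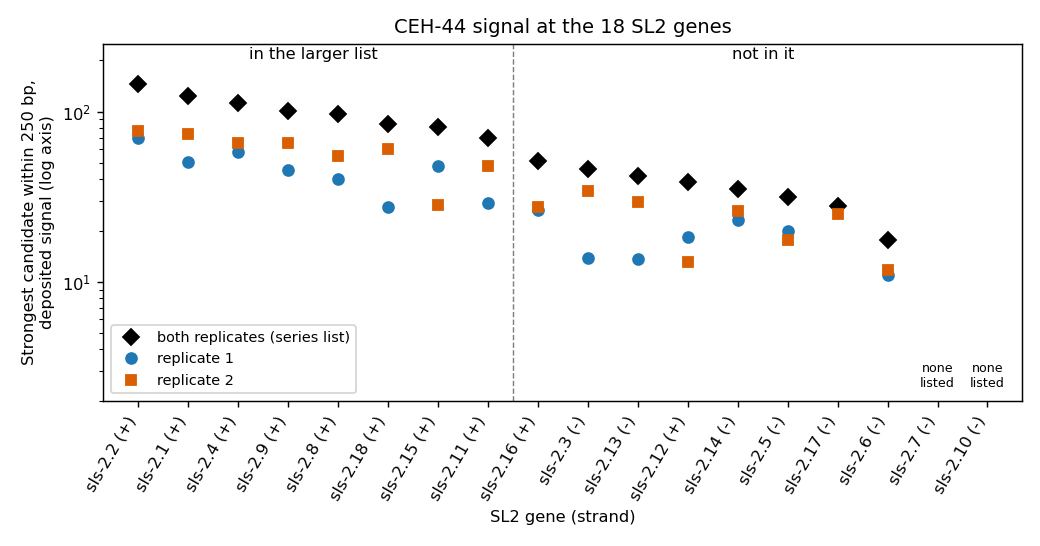
Deposited signal (log axis) of the strongest candidate within 250 bp of each of the 18 SL2 genes in the series' larger ranked list (diamonds), replicate 1 (circles) and replicate 2 (squares), with the strand in brackets. The 8 genes of the larger thresholded list, at 70.0 to 146, all carry a plus sign, and sls-2.7 and sls-2.10 have no candidate listed.

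Among the 8 strongest peaks the summit fell inside the SL2 gene at 5 (sls-2.2, sls-2.4, sls-2.11, sls-2.15 and sls-2.18) and before it at 3 (sls-2.1, sls-2.8 and sls-2.9). Their positions ran from 142 bp before the gene start to 90 bp after it, with a median of 25.5 bp after it. In replicate 2 the same 8 ran from 50 bp before to 36 bp after the start, with a median 12.5 bp before it. In replicate 1 they ran from 137 bp before to 120 bp after, with a median 29 bp after. The medians of the replicates thus fell on either side of the gene start. Gene by gene, the replicates' own summits differed in side at sls-2.4 and sls-2.11 alone. The summit was the exact middle of a 256-bp interval in all 8, as in 98.0% of the larger list, so a summit is the middle of an interval longer than the gene.

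**Figure D2:**
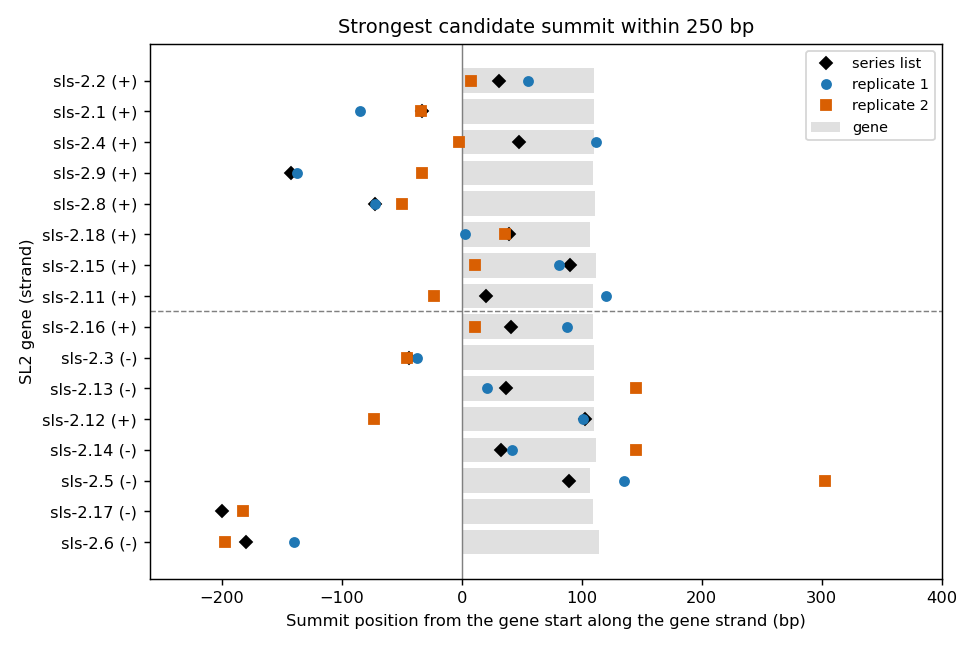
Position of the strongest candidate summit within 250 bp of 16 SL2 genes, in bp from the gene start along the gene's strand, in the series list (diamonds), replicate 1 (circles) and replicate 2 (squares), with each gene drawn as a grey bar. Genes above the dashed line have a listed peak, and their series summits lie from 142 bp before the start to 90 bp after it.

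Several of the summits lay near other annotated genes. Short noncoding transcripts on the opposite strand overlap sls-2.2 (C17C3.23), sls-2.4 (R12E2.18) and sls-2.8 (Y75B8A.49), as one overlaps sls-2.3 without a peak (C17C3.22). The noncoding gene B0280.21 overlaps sls-2.18 on the same strand, and B0280.22 lay 219 bp from its summit. The noncoding gene M01E5.8 held the sls-2.9 summit together with the tRNA gene, and the end of top-1, the gene of a DNA topoisomerase, lay 177 bp from it. The sls-2.1 summit lay 212 bp from nep-25, a neprilysin gene, and the sls-2.4 summit lay 184 bp from R12E2.11. Which of the overlapping genes a summit belongs to was not tested.

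All 8 SL2 genes with a peak were on the plus strand of their chromosome. They were 8 of 10 plus-strand genes (80%) and 0 of 8 minus-strand genes (0%). The plus-strand genes without a peak were sls-2.12, at 38.5, and sls-2.16. The median of the strongest series signal was 90.8 over the 10 plus-strand genes and 33.4 over the 6 minus-strand genes with a candidate, whose highest was 45.8 at sls-2.3. The split was noticed in the results and was not among the comparisons planned. In the other classes counted, the shares on the strands lay closer together. Plus- and minus-strand genes had a peak at 3.38% and 3.12% over all genes, 50.7% and 48.7% over tRNA genes, 20.2% and 20.2% over snoRNA genes, and 24.4% and 31.8% over the other snRNA genes. Members with like sequences and shared loci are not independent, so no p-value was computed for the split.

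Some like sequences lie on opposite strands of the same locus. The genes sls-2.2 and sls-2.3 point towards each other 456 bp apart. They are 97.3% identical in the gene but 70.6% in the 100 bp upstream. The plus-strand sls-2.2 had 146 in the series list and the minus-strand sls-2.3 had 45.8, with 69.6 and 13.8 in replicate 1 and 77.2 and 34.2 in replicate 2. The genes sls-2.15 and sls-2.14 point away from each other 486 bp apart. They are 92.9% identical in the gene and 83.2% in the 100 bp upstream. There the plus-strand gene had 81.3 and the minus-strand gene 35.2 in the series list, with 48.1 and 23.2 in replicate 1 but 28.1 and 25.9 in replicate 2, where they lay close.

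In the glr-2 cluster, sls-2.18 and sls-2.5 are 1737 bp apart, 92.6% identical in the gene and 83% in the 100 bp upstream. The plus-strand sls-2.18 had 84.5 and the minus-strand sls-2.5 had 31.6 in the series list, with 27.6 and 19.9 in replicate 1 and 60.6 and 17.5 in replicate 2. The closest copies were sls-2.11 and sls-2.10, 9585 bp apart, with 99.1% of the gene and 95% of the upstream 100 bp the same. Here the plus-strand sls-2.11 had 70.0 in the series list and the minus-strand sls-2.10 had no candidate in that list or in either replicate. The conservative ranked list held a candidate of 6.88 at sls-2.10. These 4 pairs are close copies of which 1 has a listed peak, and the list is made from these replicates, so the direction in the series and in the replicates follows largely from that choice. Close copies on opposite strands but on the same side of the threshold also existed. The genes sls-2.12 and sls-2.13 are 96.4% identical and had 38.5 and 41.6 in the series list. The minus-strand sls-2.13 was the higher there and in replicate 2 (29.4 against 13.1), but the lower in replicate 1 (13.6 against 18.3). The plus-strand sls-2.16 was above sls-2.5 (89.9% identical) in the series list, at 51.5 and 31.6, and in both replicates. The plus-strand sls-2.12 was above sls-2.17 (93.6% identical) in the series list, at 38.5 and 27.9, but below it in replicate 2 (13.1 against 25.1). In replicate 1 sls-2.12 had 18.3 and sls-2.17 had no candidate.

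**Figure D3:**
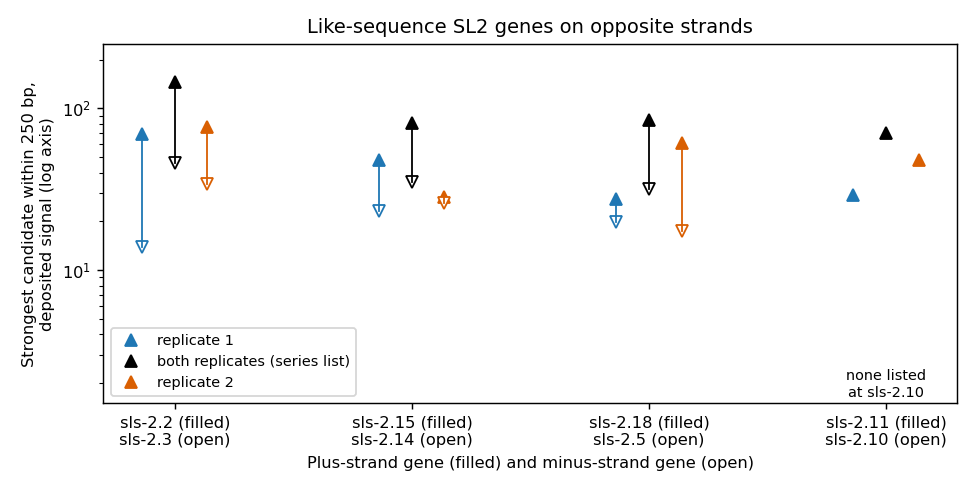
Deposited signal (log axis) of the strongest candidate within 250 bp for 4 pairs of like SL2 genes on opposite strands, with the plus-strand gene filled and the minus-strand gene open, for replicate 1 (left), the series list (middle) and replicate 2 (right) of each pair. The filled symbol is the higher in each pair, and no candidate is listed at sls-2.10.

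Genes with the same leader were divided as follows. Of the 4 genes with the leader of sls-2.2, 3 had a peak. Of sls-2.10 and sls-2.11, which share another, 1 did. The genes sls-2.5, sls-2.6 and sls-2.7 share a leader of their own and 0 of them did, nor did sls-2.12 or sls-2.13, which share one more. The 7 leaders found in 1 gene each were split between 4 with a peak (sls-2.8, sls-2.9, sls-2.15 and sls-2.18) and 3 without (sls-2.14, sls-2.16 and sls-2.17).

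The SL1 genes had no peak in any of the 4 thresholded lists. All 12 lay in 1 array on chrV:17118154-17132107, 13954 bp long, with 12 of the 5S rRNA genes between them and a median spacing of 976 bp from one SL1 start to the next. The 5S rRNA is the small RNA of the large ribosomal subunit made by RNA polymerase III. Of the SL1 genes 11 were on the minus strand, opposite to the 5S genes, and sls-1.12 at the edge of the array was on the plus strand. That gene was the one SL1 gene with a candidate within 250 bp, at 11.4 in replicate 1, 8.08 in replicate 2 and 16.5 in the series list, ranked 67648th of 115557.

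Strong candidates nevertheless lay elsewhere in the array. The larger ranked list held 9 candidates within it, 0.645 per kb against 1.13 per kb over chromosome V. Of these, 4 had a global irreproducible discovery rate (IDR, an estimate of how many calls ranked this high fail to recur) of 0.01 or less, the value every peak of the thresholded lists meets, yet none of the 4 was in a thresholded list. The nearest peak of the larger list was 152310 bp from the array.

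The strongest of the 4 had its summit 418 bp before sls-1.11 and 123 bp from the 5S gene rrn-4.6, with 78.2 in replicate 1, 68.8 in replicate 2 and 145 in the ranked series list, where it was 89th. The second lay 317 bp before sls-1.9 and 26 bp from rrn-4.7, with 38.2, 78.7 and 115 in the same order. The third lay 310 bp before sls-1.4 and 19 bp from rrn-4.12, with 46.0, 46.0 and 80.4. The fourth lay 1003 bp from sls-1.4 and 301 bp from rrn-4.11, with 15.1, 51.9 and 63.4. The first is thus about as strong as the sls-2.2 peak, and all 4 lie nearer to a 5S gene than to an SL1 gene. With the distance widened to 500 bp and these candidates allowed, 3 of the 12 SL1 genes would have one. The share of all genes at 500 bp is not given here, and within 250 bp it was 3.28%. Whether 3 is more than that share would give is thus not shown.

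**Figure D4:**
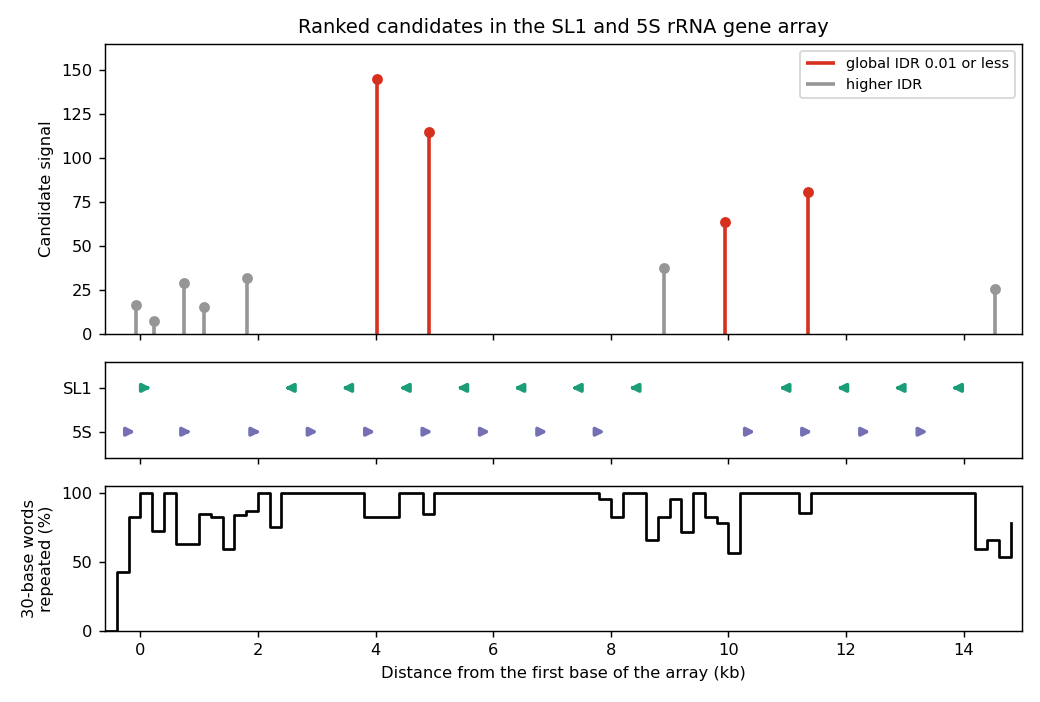
The SL1 and 5S gene array by distance from its first base (kb): signal of each ranked candidate of the series (top, red where the global IDR is 0.01 or less), SL1 and 5S genes with their direction (middle), and the share of 30-base words with a second copy in the genome in bins of 200 bp (bottom). The 4 red candidates, at 63.4 to 145, lie beside 5S genes or between SL1 genes, and no red candidate stands on an SL1 gene.

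SL1 and SL2 genes differed in how far their sequence is repeated. A sequence counted as repeated when its 30-base words had a second copy on either strand of the genome, and a read lying wholly in such a word has more than 1 place that matches it. Every word of all 12 SL1 genes was repeated, with up to 13 copies of a 30-base word and 12 of a 50-base word. Within 250 bp around each SL1 gene the repeated share was 100% at the median and lowest, 80.1%, around sls-1.12, the one gene with a candidate. For SL2 genes the repeated share was 18.6% of the gene at the median (0 to 79.0%) and 9.99% of the window within 250 bp.

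Within the SL2 family the median repeated share was similar with and without a peak, while some of the extremes differed. It was 17.2% of the gene at the median for the 8 with a peak and 18.6% for the 10 without, and 9.99% and 9.72% of the window. No word of the gene was repeated at 3 of the 8 with a peak and at 0 of the 10 without. The most copies of a word were 2 at the median with a peak and 3.5 without, but 4 at the highest in both groups. The highest window share was 16.1% with a peak and 45.1% without, at sls-2.12. The next highest without a peak was 17.5%, at sls-2.5. The copies sls-2.10 and sls-2.11 had the same 62.5% of the gene and the same 14.7% of the window. The genes sls-2.14 and sls-2.15 had 7.23% and 2.06% each. At sls-2.8 no word within the window was repeated, and its peak was in both replicates' own lists.

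Repeated sequence did mark the strong candidates that the thresholded list does not hold. Of 1109 candidates with a global IDR of 0.01 or less, 82 were absent from both series lists, the 4 of the array among them. Within 128 bp of the summit, a median of 89.5% of the 30-base words was repeated at the 82, against 0.877% at the 1027 listed peaks. More than 50% was repeated at 73 of the 82 and at 101 (9.83%) of the listed peaks. The reason those candidates are absent is not given in the sources used here, and the part of repeats in it was not tested. None of the 82 lay within 250 bp of a spliced leader gene. For SL1 genes, the lack of a peak and the repeated sequence cannot be told apart.

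Genes of the trans-splicing machinery, and the 5S rRNA genes that share the SL1 repeats, were counted the same way. The 16 5S rRNA genes had 0 listed summits within 250 bp, and 3 of them had a candidate with a global IDR of 0.01 or less, as 3.28% of all genes did. These were rrn-4.6, rrn-4.7 and rrn-4.12 of the array described above. The 12 genes of SmY RNA, a small nematode RNA linked to trans-splicing, had 0. For protein genes a summit from 1000 bp before to 200 bp after the start was counted, which 2.99% of 19973 coding genes had. Of the 7 Sm protein genes, 2 had one: snr-4 with a signal of 150 at 350 bp before the start, and snr-1 with 113 at 384 bp before it. Of 3 genes for proteins of the SL and SmY particles, sna-2 had one, with 67.6 at 598 bp before the start. None was counted for tgs-1, which encodes the enzyme that trimethylates caps, for the 3 cap-binding eIF4E genes ife-1, ife-2 and ife-5, or for the 7 genes named for SNAPc subunits.

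Of the 89 genes the annotation files as other snRNAs, 25 had a summit within 250 bp, with sup-39 and the mir-1831 entry inside it counted on 1 summit. The highest were a gene filed under R07E5.16 (WBGene00014543) with a signal of 172, T11F9.15 with 150 and sup-6 with 141. The T11F9.15 peak is the peak counted for snr-4, so the Sm protein count and the snRNA count share it. The sls-2.2 signal of 146 falls among these 3.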

How the data were processed

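CEH-44 ChIP-seq was deposited as peak lists on ce11, per the labels. Each replicate had a ranked and a thresholded list, and both replicates together had 2 of each, of which the larger thresholded list (1027 peaks) and its ranked list (115557 candidates) were used as the main ones. The deposited signal of each peak, the deposited score (a scaled IDR) and the deposited −log10 of the global IDR are the authors' values. The descriptions deposited with the thresholded lists name a further input whose kind is not described. For the aligner and the peak caller, nothing is given in the sources used here, nor for depth, so no interval could be set on a signal.

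A summit was column 2 plus column 10, and it was assigned to a gene of the Ensembl annotation (release 115) when within 250 bp of it. All 30 members matched RefSeq genes by position, which gave the SL1 names. Words and repeats were counted on the RefSeq WBcel235 sequence. Python 3.11.15, numpy 2.4.6, pandas 2.3.3, Biopython 1.88 and matplotlib 3.10.9 were used. The assignment was checked on simulated summits. No test was run: there is 1 group of 2 replicates, and members share sequence. All members were accounted for. Those with a listed peak, and in each family the 3 highest and the lowest by signal, were described singly, with genes within 250 bp of their summits. Of other gene lists up to 3 with a peak were named by signal. Members, gene lists, words and the strand split were chosen with earlier results of these data known. Sequences from chromosome I are not printed here.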

Additional observations from a re-analysis of the deposited data

How the results depend on the processing

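Under the conservative list, distances of 100 and 500 bp, overlap of peak and gene, and the peaks above the list's median signal, SL1 genes with a peak stayed at 0 and SL2 genes stayed at 7 or 8. A window from 1000 bp before to 200 bp after the start gave 9 SL2 genes, the added one being sls-2.14, which then takes the sls-2.15 summit 577 bp before it. With 1 replicate left out, SL2 genes numbered 5 to 7. Allowing candidates with a global IDR of 0.01 or less within 500 bp, a setting added after seeing the data, gave 3 SL1 genes and 8 SL2 genes. The share of all genes at that setting is not given here. Leaving out summits within 250 bp of a tRNA gene, also added later, gave 7 SL2 genes. The SL2 median signal was 48.6 in the conservative ranked list, where all 18 genes had a candidate, and 27.6 to 31.8 in single replicates, whose lists have their own scale. The SL1 value, which rests on 1 gene, was 8.08 to 11.4 in single replicates and 80.4 over the 5 genes with a candidate within 500 bp. The median summit position over 16 SL2 genes was 32 bp after the start, and in single replicates it ran from -12.5 to 42 bp. The cause of these differences was not tested. Depth is unknown, and ranked lists end at a signal of 2.00, so weaker sites were not detectable.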

Other observations

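The annotated pseudogene sls-2.19, on chrIV:5264907-5265021 on the plus strand, had a peak in the larger list although it is not counted among the 18 SL2 genes. Its signal was 36.6 in replicate 1, 33.3 in replicate 2 and 67.9 in the series list, just below the lowest SL2 gene with a peak, sls-2.11 at 70.0. Unlike the SL2 genes with a peak, it was in neither replicate's own thresholded list. The summit lay 60 bp after its start, inside the noncoding gene F36H12.65, which is annotated there on both strands.

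Words counted over all peaks were also looked for at the SL2 summits. Within 50 bp of the summit, ATCGAT was at 0 of the 8 SL2 peaks, against 3.21% of the 1027 peaks of the larger list. The word ATCAAT was at 0 of the 8, against 4.77%. The word GAGAGA was also at 0 of the 8, against 14.8%. ATTAAT was at 1 of the 8, sls-2.15, against 2.34% of all peaks. With 8 summits, these counts are a description only.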
